A study of Mus musculus with 4 samples.

Results

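The glucose, amino acid and monocarboxylate transporters of embryonic mouse brain were followed as the protein-coding genes whose symbols fall in the Slc2a, Slc7a, Slc16a and Slc38a families. Among 22414 genes listed in either deposited table, 46 met this rule, 14 of the Slc16a, 11 of the Slc2a, 11 of the Slc7a and 10 of the Slc38a family. A total of 44 were listed in both tables. Poly(A) RNA was sequenced from brain at embryonic day 13 of mice on a C57BL/6 background, with 2 libraries labelled Wt1CKO (Wt1_CKO here) and 2 labelled WT; Wt1fl/fl (Wt1_flfl here). The Wt1_CKO animals carry a conditional knockout of Wt1, a zinc finger transcription factor gene, and the Wt1_flfl animals carry floxed alleles and serve as the wild type. The labels give neither the Cre driver of the knockout, nor the brain region, nor whether a library came from 1 animal or a pool. The p-values below therefore measure the spread between these libraries, which may be technical. Below, a number after the group name is the replicate (Wt1_CKO 1). By its title the study concerned Wt1 in the growth and maturation of neural progenitors.

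Members of these families move small nutrients across membranes. Many Slc2a proteins (GLUTs) carry glucose and other hexoses down their gradients, and GLUT1 in vessel walls brings glucose from blood into brain. Some Slc16a proteins (MCTs) carry lactate, pyruvate and ketone bodies with protons, and some members carry other substrates such as aromatic amino acids. Many Slc7a light chains need the heavy chain Slc3a2 to reach the cell surface, while the Slc7a cationic carriers work alone. The Slc38a proteins (SNATs) take up glutamine, alanine and other neutral amino acids with sodium, at the cell surface or at the lysosome.

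The deposited tables held 16219310 to 17704698 counts per library, of which the members took 0.127% to 0.139%. Values are CPM, counts scaled to library size by the TMM method, and CPM per kb divides them by the length of all annotated exons of the gene. Ribosomal RNA genes took 0.458% of the counts in Wt1_flfl replicate 1 and 0.0184% to 0.0451% in the other libraries. Markers of neural progenitors summed to 2964 and 3297 CPM in Wt1_CKO 1 and 2, against 2937 and 3149 CPM in Wt1_flfl 1 and 2, and markers of neurons to 6848 and 5802 CPM in Wt1_CKO 1 and 2, against 7057 and 6195 CPM in Wt1_flfl 1 and 2. All 10 markers of both lists were detected, which matches the tissue label. Transcripts of Wt1 itself were not analysed here, and the labels of genotype have no such check.

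The promoters of the 4 members below are shown because Slc16a1 ranked first by genotype, Slc38a5 had the lowest replicate fold change of its family, Slc38a6 stood apart in a single library, and Slc7a11 is a textbook target of the amino acid response. The sequences are the 250 bases before the RefSeq start site on GRCm38.p6, and 33 of the 46 members had an entry. Capitals mark the motifs searched on both strands, namely the E-box CACGTG bound by Myc and USF proteins, the cyclic AMP element TGACGTCA and the core TGATGCAA bound by Atf4 with C/EBP proteins. The hypoxia element core ACGTG was searched too and lies inside each E-box shown.
Slc16a1 (chr3:104638414-104638663, plus strand): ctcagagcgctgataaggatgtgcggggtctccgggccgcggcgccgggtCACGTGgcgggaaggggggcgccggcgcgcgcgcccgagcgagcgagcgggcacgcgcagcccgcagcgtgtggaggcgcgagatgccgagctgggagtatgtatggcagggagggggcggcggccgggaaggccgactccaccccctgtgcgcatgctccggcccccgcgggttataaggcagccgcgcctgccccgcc
Slc38a5 (chrX:8271131-8271380, plus strand): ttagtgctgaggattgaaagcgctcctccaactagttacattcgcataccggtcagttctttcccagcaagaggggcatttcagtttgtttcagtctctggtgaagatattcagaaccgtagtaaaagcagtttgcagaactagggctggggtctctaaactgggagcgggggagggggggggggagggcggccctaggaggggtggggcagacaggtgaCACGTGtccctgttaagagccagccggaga
Slc38a6 (chr12:73286598-73286847, plus strand): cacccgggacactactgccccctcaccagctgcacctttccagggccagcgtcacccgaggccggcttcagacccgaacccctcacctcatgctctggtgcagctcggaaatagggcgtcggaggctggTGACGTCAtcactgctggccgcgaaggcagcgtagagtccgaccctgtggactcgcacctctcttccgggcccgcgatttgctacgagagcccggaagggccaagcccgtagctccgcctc
Slc7a11 (chr3:50443614-50443863, minus strand): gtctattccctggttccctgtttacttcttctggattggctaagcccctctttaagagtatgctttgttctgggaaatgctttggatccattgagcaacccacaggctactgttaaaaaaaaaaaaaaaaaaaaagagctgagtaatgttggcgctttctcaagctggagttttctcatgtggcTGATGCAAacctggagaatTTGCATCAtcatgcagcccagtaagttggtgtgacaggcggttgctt
The E-box begins 200 bases before the start of Slc16a1 and 30 bases before that of Slc38a5, and it was found in 5 of 41 member windows and in 6.02% of all 32851 windows. The cyclic AMP element of Slc38a6 begins 121 bases before its start, and 1.55% of all windows hold such a site. Slc7a11 has 2 copies of the Atf4 core, 66 and 47 bases before its start, while 0.791% of all windows hold 1 or more. The core ACGTG was in 10 of 41 member windows and in 16.6% of all. For Slc38a5 and Slc38a6 the RefSeq start lies inside the gene span that the tables give. These matches describe the letters in each window and say nothing of binding in these brains.

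The carriers of glutamine and other neutral amino acids dominated the families. Slc38a2 (SNAT2), a sodium-coupled carrier that cells raise when amino acids are short, had the highest level per length, 31.5 to 37.2 CPM per kb over the 4 libraries. Next came Slc7a5 (LAT1), which exchanges large neutral amino acids, with 22.9 to 26.7 CPM per kb. Slc2a1 (GLUT1) had 18.9 to 24.0 and Slc38a10 19.2 to 22.8 CPM per kb. Slc7a5 was above Slc2a1 in each of the 4 libraries, although their ranges overlapped. Slc2a1 and Slc38a10 changed order between libraries. Slc38a1 (SNAT1), another sodium-coupled glutamine carrier, had 12.2 to 15.3 CPM per kb, and Slc7a6, a light chain that exchanges cationic for neutral amino acids, 13.1 to 15.8, and these also changed order between libraries. At the other end, Slc38a11, Slc16a9, Slc2a9 and Slc16a12 stayed under the count filter of the test. Levels per length depend on the annotated exons, which are long for Slc38a1, Slc38a9, Slc7a11, Slc16a7 and Slc7a1 and lower their values.

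**Figure D1:**
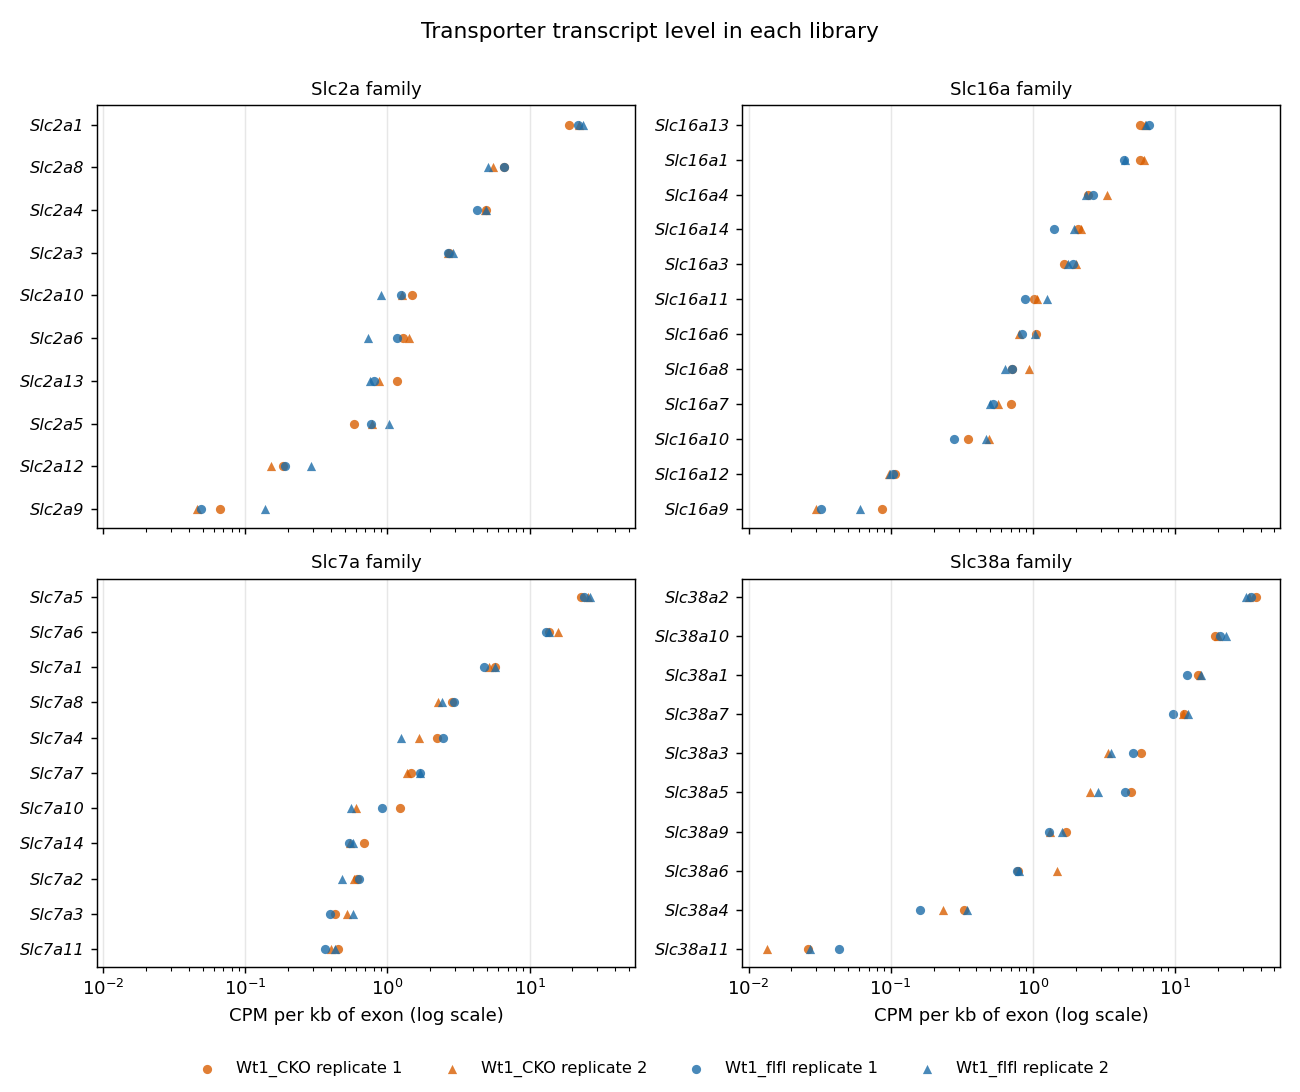
Level of 43 members listed in both tables, in CPM per kb of exon on a log axis. Each symbol is 1 library, with Wt1_CKO in orange, Wt1_flfl in blue, replicate 1 as circles and replicate 2 as triangles. Slc38a2, Slc7a5 and Slc2a1 lead their families, and Slc38a11 is the lowest member.

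Each family was led by a few genes. The Slc38a family summed to 827 and 783 CPM in Wt1_CKO 1 and 2, against 751 and 799.7 CPM in Wt1_flfl 1 and 2, and Slc38a2 with Slc38a1 held 69.0% of it. The Slc7a family summed to 265 and 269.9 CPM in Wt1_CKO 1 and 2, against 255 and 269.7 CPM in Wt1_flfl 1 and 2, and Slc7a5 with Slc7a6 held 59.1%. The Slc2a family summed to 147 and 152 CPM in Wt1_CKO 1 and 2, against 151 and 156 CPM in Wt1_flfl 1 and 2, with 63.6% in Slc2a1 and Slc2a3. The Slc16a family summed to 139 and 126 CPM in Wt1_CKO 1 and 2, against 122 and 118 CPM in Wt1_flfl 1 and 2. The sums of the genotypes overlapped in the Slc38a, Slc7a and Slc2a families. In the Slc16a family both Wt1_CKO sums were above both Wt1_flfl sums. Much of this gap lay in Slc16a1, with 25.2 and 26.6 CPM in Wt1_CKO 1 and 2, against 19.5 and 19.8 CPM in Wt1_flfl 1 and 2. Of the 11 tested Slc16a genes, 5 were higher in Wt1_CKO under both replicate numbers, 1 was lower and 5 turned direction. Over all tested genes 27.0% were higher under both numbers and 25.9% lower.

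The first comparison asked whether any transporter differed between Wt1_CKO and Wt1_flfl brain. None of the 40 members that passed the count filter was called by edgeR's quasi-likelihood test at an adjusted p of 0.05, where 0.00628% of all 15933 tested genes were called. DESeq2 called 0 members too, beside 0.0314% of all genes. At an unadjusted p under 0.05 edgeR had 1 member, Slc16a1, or 2.5%, higher in Wt1_CKO, beside 1.56% of all genes (0.596% higher and 0.967% lower). No member reached an absolute log2 fold change of 1, and the values ran from -0.43 to 0.54. The authors' deposited tables mark no member in either table, beside 3.2% of the genes of the replicate 1 table and 3.19% of the replicate 2 table. A count of 0 does not show that the genotypes have equal levels.

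The lactate carrier Slc16a1 (MCT1), which takes up lactate, pyruvate and ketone bodies, ranked first. Slc16a1 (ENSMUSG00000032902, chromosome 3, 104638668 to 104658462 on the forward strand, GRCm38) had 25.2 and 26.6 CPM in Wt1_CKO replicates 1 and 2, against 19.5 and 19.8 CPM in Wt1_flfl replicates 1 and 2. Both Wt1_CKO libraries were above both Wt1_flfl libraries. Slc16a1 averaged 25.9 ± 1.0003 CPM in Wt1_CKO and 19.7 ± 0.223 CPM in Wt1_flfl (SD, n = 2 each). Its log2 fold change by genotype came to 0.39 (SE 0.0408), and it was 0.37 between the replicate 1 libraries and 0.42 between the replicate 2 libraries. Its unadjusted edgeR p was 0.0311 and its adjusted p 0.99996, so it was not called. The authors' deposited tables, which set 1 library against 1, give adjusted p-values of 0.00131 and 0.000261 for replicates 1 and 2, without their mark, which asks for an absolute log2 fold change of 1. An SE from 2 libraries a group is itself imprecise and can be smaller than counting error. Without any single library the log2 fold change stayed between 0.36 and 0.43.

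Other Slc16a members varied more. Slc16a7 (MCT2), a high-affinity carrier of neurons, had 8.37 and 6.73 CPM in Wt1_CKO 1 and 2, against 6.22 and 5.90 CPM in Wt1_flfl 1 and 2, with no overlap and a log2 fold change of 0.30. Slc16a3 (MCT4), which exports lactate from glycolytic cells, had 8.87 and 10.6 CPM in Wt1_CKO 1 and 2, against 10.3 and 9.46 CPM in Wt1_flfl 1 and 2, and the groups overlapped. Slc16a8 (MCT3), known from the retinal pigment epithelium, had 1.63 and 2.15 CPM in Wt1_CKO 1 and 2, against 1.62 and 1.46 CPM in Wt1_flfl 1 and 2. Slc16a14 had 6.96 and 7.37 CPM in Wt1_CKO 1 and 2, against 4.73 and 6.48 CPM in Wt1_flfl 1 and 2. Its log2 fold change of 0.36 was 0.14 without Wt1_flfl replicate 1 and 0.59 without Wt1_flfl replicate 2. Slc16a4 had 9.49 and 12.8 CPM in Wt1_CKO 1 and 2, against 10.3 and 9.22 CPM in Wt1_flfl 1 and 2, with Wt1_CKO replicate 2 above the other libraries. Slc16a13 had 14.8 and 15.95 CPM in Wt1_CKO 1 and 2, against 17.2 and 16.2 CPM in Wt1_flfl 1 and 2, lower in Wt1_CKO without overlap (log2 fold change -0.11).

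No hexose carrier was called between the genotypes, and the 4 most abundant overlapped. Slc2a1, the glucose carrier of the blood-brain barrier, had 66.3 and 78.4 CPM in Wt1_CKO replicates 1 and 2, against 76.8 and 84.0 CPM in Wt1_flfl replicates 1 and 2. Its groups overlapped and its log2 fold change was -0.16 (SE 0.137), or -0.04 without Wt1_CKO replicate 1 and -0.27 without Wt1_CKO replicate 2. Markers of endothelial cells, which line the vessels and carry GLUT1, summed to 202 and 215 CPM in Wt1_CKO 1 and 2, against 214 and 223 CPM in Wt1_flfl 1 and 2, and all 15 were detected. Their part in the Slc2a1 value was not tested, and in whole tissue fewer cells of a type and less RNA per cell cannot be told apart. Slc2a3 (GLUT3), the neuronal glucose carrier, had 19.7 and 19.4 CPM in Wt1_CKO 1 and 2, against 19.3 and 21.0 CPM in Wt1_flfl 1 and 2. Slc2a4 (GLUT4), the insulin-regulated carrier of muscle and fat, had 17.1 and 17.0 CPM in Wt1_CKO 1 and 2, against 14.8 and 17.0 CPM in Wt1_flfl 1 and 2. Slc2a8 (GLUT8), an intracellular hexose carrier, had 21.3 and 17.6 CPM in Wt1_CKO 1 and 2, against 21.1 and 16.4 CPM in Wt1_flfl 1 and 2, and its values followed the replicate number.

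The smaller Slc2a members spread more widely. Slc2a6 (GLUT6) had 4.16 and 4.58 CPM in Wt1_CKO 1 and 2, against 3.73 and 2.34 CPM in Wt1_flfl 1 and 2, and its log2 fold change of 0.54, the highest of the 40, came mostly from Wt1_flfl replicate 2. Slc2a13 (HMIT), a proton-coupled carrier of myo-inositol, had 9.83 and 7.25 CPM in Wt1_CKO 1 and 2, against 6.78 and 6.31 CPM in Wt1_flfl 1 and 2, with a log2 fold change of 0.36, which was 0.15 without Wt1_CKO replicate 1 and 0.58 without Wt1_CKO replicate 2. Slc2a10 (GLUT10) had 5.28 and 4.53 CPM in Wt1_CKO 1 and 2, against 4.42 and 3.21 CPM in Wt1_flfl 1 and 2. The fructose carrier Slc2a5 (GLUT5) had 1.97 and 2.67 CPM in Wt1_CKO 1 and 2, against 2.61 and 3.50 CPM in Wt1_flfl 1 and 2, a log2 fold change of -0.38 with overlapping groups. Slc2a12 (GLUT12), at 14 and 11 counts in Wt1_CKO 1 and 2, against 13 and 21 counts in Wt1_flfl 1 and 2, had the lowest log2 fold change of the 40, -0.43, which rested on Wt1_flfl replicate 2. Its exons share 407 bases with Tbpl1 on the other strand, at 80.7 to 87.3 CPM, so its value is uncertain. None of these was called by edgeR.

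No carrier of the Slc7a family was called between the genotypes. Slc7a5 had 84.9 and 95.3 CPM in Wt1_CKO 1 and 2, against 89.9 and 99.0 CPM in Wt1_flfl 1 and 2, a log2 fold change of -0.07 (SE 0.108). Its heavy chain Slc3a2 had 87.0 and 93.7 CPM in Wt1_CKO 1 and 2, against 98.4 and 101 CPM in Wt1_flfl 1 and 2, below in both Wt1_CKO libraries (log2 fold change -0.14), and edgeR did not call it. Slc7a6 had 62.6 and 72.1 CPM in Wt1_CKO 1 and 2, against 59.7 and 62.7 CPM in Wt1_flfl 1 and 2. The arginine and lysine carrier Slc7a1 (CAT1) had 66.4 and 60.1 CPM in Wt1_CKO 1 and 2, against 55.1 and 66.0 CPM in Wt1_flfl 1 and 2. Slc7a6 and Slc7a1 overlapped between the genotypes. Slc7a8 (LAT2), another exchanger of neutral amino acids, had 14.3 and 11.4 CPM in Wt1_CKO 1 and 2, against 14.7 and 12.03 CPM in Wt1_flfl 1 and 2. Slc7a7, the light chain related to Slc7a6, had 4.83 and 4.53 CPM in Wt1_CKO 1 and 2, against 5.66 and 5.605 CPM in Wt1_flfl 1 and 2, lower in Wt1_CKO without overlap (log2 fold change -0.26). The cystine-glutamate exchanger Slc7a11 (xCT) had 6.29 and 5.57 CPM in Wt1_CKO 1 and 2, against 5.10 and 5.95 CPM in Wt1_flfl 1 and 2. Exons of Slc7a7 share 232 bases with Oxa1l on the other strand, and the labels do not say whether counting used strand.

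Of the 9 tested SNAT genes, 2 were higher in Wt1_CKO under both replicate numbers, 1 was lower under both and 6 turned direction. Over all tested genes, 27.0% were higher under both numbers and 25.9% lower, and the rest did not keep 1 direction. Slc38a2 had 329 and 292 CPM in Wt1_CKO 1 and 2, against 302 and 279 CPM in Wt1_flfl 1 and 2. Slc38a1 had 249.8 and 257 CPM in Wt1_CKO 1 and 2, against 209.7 and 263 CPM in Wt1_flfl 1 and 2, with Wt1_flfl replicate 1 the lowest library. Slc38a10 had 123 and 129.6 CPM in Wt1_CKO 1 and 2, against 134 and 147 CPM in Wt1_flfl 1 and 2, lower in Wt1_CKO without overlap, at a log2 fold change of -0.15 (SE 0.0743). Slc38a7 (SNAT7), a glutamine exporter of lysosomes, had 47.7 and 47.2 CPM in Wt1_CKO 1 and 2, against 40.002 and 51.4 CPM in Wt1_flfl 1 and 2. Slc38a9, a lysosomal arginine sensor of the mTORC1 pathway, had 28.4 and 22.2 CPM in Wt1_CKO 1 and 2, against 21.6 and 26.7 CPM in Wt1_flfl 1 and 2. Slc38a4, which in mouse is imprinted and expressed from the paternal allele, had 25 and 17 counts in Wt1_CKO 1 and 2, against 11 and 25 counts in Wt1_flfl 1 and 2, with log2 fold changes of 0.92 and -0.51 between replicate 1 and replicate 2 libraries. In the 9 tested Slc38a genes, 8 were higher in Wt1_CKO among replicate 1 libraries and 2 among replicate 2 libraries. Their median log2 fold changes were 0.20 and -0.12 in that order, beside 0.00876 and -0.00166 over all tested genes.

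Slc38a6 stood apart in a single library. It had 109 and 198 counts in Wt1_CKO replicates 1 and 2, against 97 and 106 counts in Wt1_flfl replicates 1 and 2. The log2 fold change of 0.45 therefore came from Wt1_CKO replicate 2, and was 0.02 between the replicate 1 libraries.

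**Figure D2:**
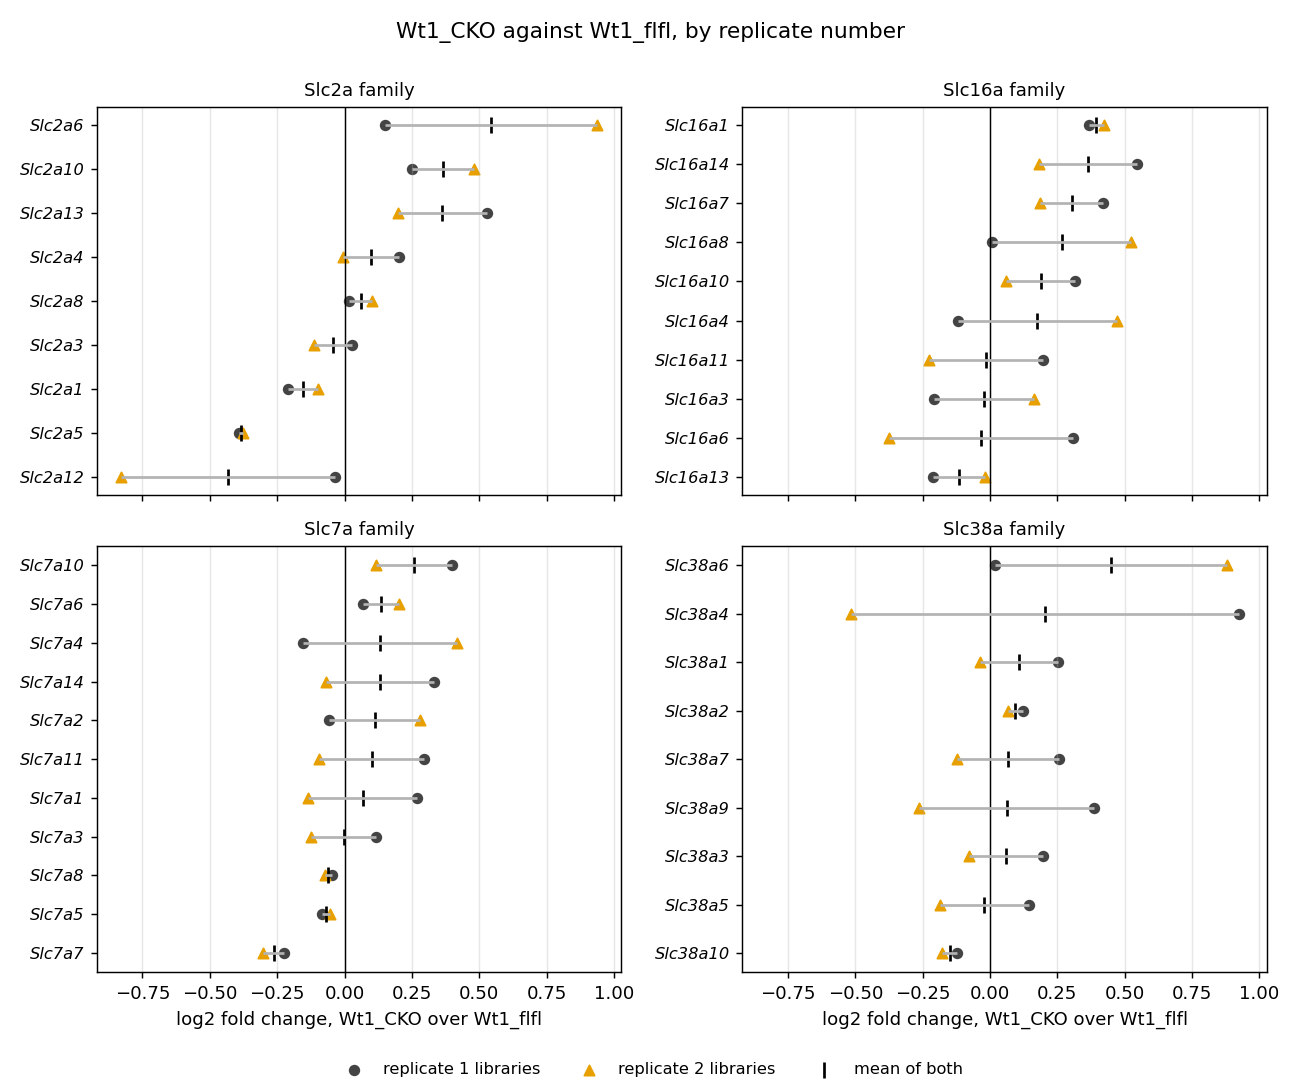
Log2 fold change of Wt1_CKO over Wt1_flfl for 39 tested members, with the replicate 1 libraries as circles, the replicate 2 libraries as triangles and the mean as a bar. The values of Slc16a1 are 0.37 and 0.42, while those of Slc38a4 and Slc38a6 lie far apart.

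Counted over all 40 members, 13 were higher in Wt1_CKO under both replicate numbers, 8 were lower under both and 19 turned direction between the numbers. The shares of 32.5% and 20.0% stood beside 27.0% and 25.9% of all tested genes. Groups did not overlap for 7 members higher and 4 lower in Wt1_CKO, where 13.4% of all genes were higher without overlap and 13.5% lower; 7 of 40 is 17.5%. The 7 were Slc16a1, Slc16a7, Slc16a8, Slc16a14, Slc2a6, Slc2a10 and Slc2a13. The gap can be small, as for Slc16a8 with 1.63 CPM in Wt1_CKO replicate 1 and 1.62 CPM in Wt1_flfl replicate 1. The median log2 fold change was 0.08 over the members and 0.01 over all genes, and 26 members, or 65.0%, had a positive one, beside 51.8% of all genes. The members' median was 0.15 between replicate 1 libraries and -0.05 between replicate 2 libraries, and 0.01 without Wt1_CKO replicate 1. By family the medians were 0.17 for Slc16a, 0.06 for Slc2a, 0.10 for Slc7a and 0.07 for Slc38a.

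Genes of partner proteins and of the pathways around the carriers had no call by genotype either. Bsg (basigin), the chaperone of MCT1 and MCT4, had 229 and 221 CPM in Wt1_CKO 1 and 2, against 248 and 238 CPM in Wt1_flfl 1 and 2. Bsg and Slc3a2 were lower in Wt1_CKO without overlap, as 2 of 5 partner genes, and 0 were higher. Emb (embigin), the partner of MCT2, had 9.55 and 7.43 CPM in Wt1_CKO 1 and 2, against 7.47 and 8.99 CPM in Wt1_flfl 1 and 2. Its relative Nptn (neuroplastin) had 93.3 and 80.3 CPM in Wt1_CKO 1 and 2, against 95.1 and 75.5 CPM in Wt1_flfl 1 and 2. The heavy chain Slc3a1 had 13 and 19 counts in Wt1_CKO 1 and 2, against 8 and 25 counts in Wt1_flfl 1 and 2. EdgeR called 0 of 5 partner genes, 0 of 16 other amino acid carriers, 0 of 20 genes of glycolysis and lactate, 0 of 20 Atf4 response genes, 0 of 17 hypoxia genes, 0 of 13 glutamine enzymes and 0 of 7 thyroid hormone genes. Their median log2 fold changes were 0.03, 0.07, 0.03, 0.06, 0.07, -0.05 and -0.04 in that order. The glycolytic isomerase Gpi1 had 177 and 183 CPM in Wt1_CKO 1 and 2, against 224 and 209 CPM in Wt1_flfl 1 and 2, the lowest unadjusted p of its list. The glutamate carrier Slc1a2, of radial glia and astrocytes, had 72.7 and 84.5 CPM in Wt1_CKO 1 and 2, against 96.4 and 93.9 CPM in Wt1_flfl 1 and 2, the 1 of 16 other amino acid carriers that was lower in Wt1_CKO without overlap. Another 4 were higher without overlap, Slc43a1, Slc1a5, Slc36a4 and Slc6a8, with log2 fold changes of 0.09 to 0.24. Over all tested genes, 13.4% were higher in Wt1_CKO without overlap and 13.5% lower. Asns, the asparagine synthetase that Atf4 drives, had 27.2 and 26.7 CPM in Wt1_CKO 1 and 2, against 23.6 and 23.7 CPM in Wt1_flfl 1 and 2. Of the 20 Atf4 response genes, 3 were higher in Wt1_CKO without overlap and 0 lower, a share near that of all genes for higher. Under both replicate numbers 5 were higher and 2 lower.

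The second comparison set the libraries numbered 2 against those numbered 1, since the deposited tables hold same-numbered samples together. What the number stands for is not given in the labels. EdgeR called 1 of the 40 members, Slc38a3, or 2.5%, lower in replicate 2, beside 1.96% of all tested genes called (0.885% higher and 1.08% lower). DESeq2 also called Slc38a3 alone among them, beside 3.63% of all genes. At an unadjusted p under 0.05 there were 6 members, all lower in replicate 2, or 15.0%, beside 17.9% of all genes (9.16% higher and 8.75% lower). Among them were Slc38a3, Slc38a5, Slc7a4, Slc7a10 and Slc2a8.

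Slc38a3 (SNAT3), a system N carrier that carries glutamine and histidine with sodium in exchange for protons, was lower in replicate 2 in both genotypes. Slc38a3 (ENSMUSG00000010064, chromosome 9, 107650634 to 107669530 on the reverse strand, GRCm38) had 17.7 CPM (Wt1_CKO) and 18.7 CPM (Wt1_flfl) in replicate 2, against 30.5 CPM (Wt1_CKO) and 26.6 CPM (Wt1_flfl) in replicate 1. Both replicate 2 libraries lay below both replicate 1 libraries. Its level averaged 18.2 ± 0.698 CPM in replicate 2 and 28.6 ± 2.77 CPM in replicate 1 (SD, n = 2 each). The log2 fold change came to -0.65 (SE 0.106), or -0.78 in Wt1_CKO and -0.51 in Wt1_flfl, and edgeR's adjusted p was 0.0460. The call was lost without Wt1_CKO replicate 1 (edgeR adjusted p 0.222), without Wt1_flfl replicate 1 (0.0803) and with no count filter (0.0654). Its log2 fold change stayed between -0.75 and -0.55 without any single library. Between the genotypes its log2 fold change was 0.06.

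Slc38a5 (SNAT5), the other system N carrier, was lower in both replicate 2 libraries without passing the test. Slc38a5 (ENSMUSG00000031170, chromosome X, 8271133 to 8280179 on the forward strand, GRCm38) had 5.63 CPM (Wt1_CKO) and 6.42 CPM (Wt1_flfl) in replicate 2, against 11.01 CPM (Wt1_CKO) and 9.95 CPM (Wt1_flfl) in replicate 1. Its log2 fold change was -0.79 (SE 0.118) at an edgeR adjusted p of 0.0667, with a range from 0.0198 to 0.278 across the alternatives. Slc38a5 lies on the X chromosome, and Xist, the RNA of the inactive X, had 4 counts in Wt1_CKO replicate 1 and 13086 to 16472 in the other libraries. The part of this difference in the Slc38a5 value was not tested. Slc7a3 (CAT3), a cationic amino acid carrier, was higher in both replicate 2 libraries, with 1.97 CPM (Wt1_CKO) and 2.16 CPM (Wt1_flfl) in replicate 2, against 1.63 CPM (Wt1_CKO) and 1.49 CPM (Wt1_flfl) in replicate 1.

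**Figure D3:**
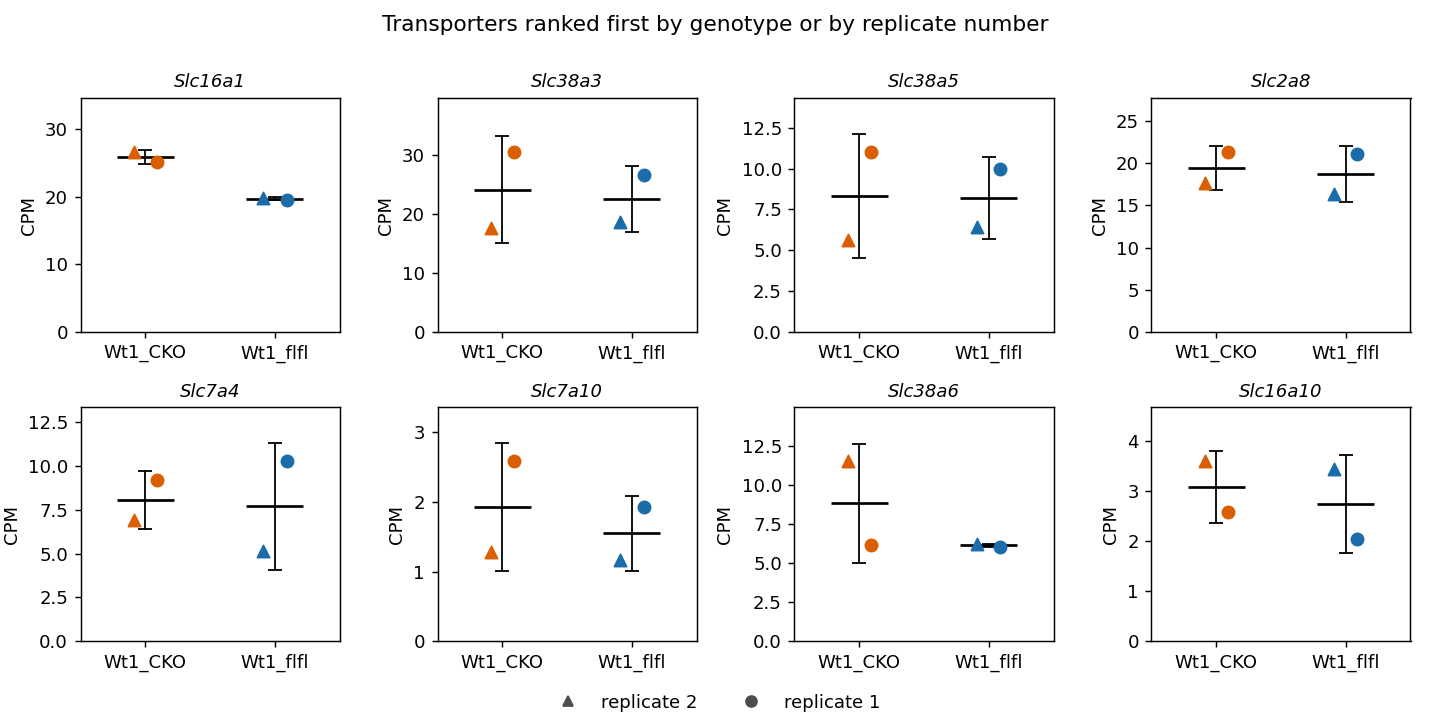
CPM per library for 8 members ranked by genotype or by replicate number, with Wt1_CKO in orange and Wt1_flfl in blue, replicate 2 as triangles and replicate 1 as circles. Bars are means and whiskers the SD of 2 libraries; Slc16a1 separates by genotype, and Slc38a3, Slc38a5, Slc7a4, Slc7a10, Slc2a8 and Slc16a10 separate by replicate number.

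Slc7a carriers appeared on both sides. Slc7a4, a relative of the cationic carriers, had 6.90 CPM (Wt1_CKO) and 5.14 CPM (Wt1_flfl) in replicate 2, against 9.21 CPM (Wt1_CKO) and 10.3 CPM (Wt1_flfl) in replicate 1, at a log2 fold change of -0.70, with an edgeR adjusted p of 0.127. Its exons share 554 bases with P2rx6 on the other strand, a gene at 1.07 to 1.87 CPM. Slc7a10 (Asc-1), an exchanger of serine, glycine and other small amino acids, had 1.28 CPM (Wt1_CKO) and 1.17 CPM (Wt1_flfl) in replicate 2, against 2.58 CPM (Wt1_CKO) and 1.93 CPM (Wt1_flfl) in replicate 1, a log2 fold change of -0.81. Its exons share 377 bases with the far more abundant Lrp3, at 133 to 168 CPM, so the Slc7a10 value is uncertain. Slc7a8 had 11.4 CPM (Wt1_CKO) and 12.03 CPM (Wt1_flfl) in replicate 2, against 14.3 CPM (Wt1_CKO) and 14.7 CPM (Wt1_flfl) in replicate 1, without overlap. Slc7a5 was above in replicate 2, with 95.3 CPM (Wt1_CKO) and 99.0 CPM (Wt1_flfl) in replicate 2, against 84.9 CPM (Wt1_CKO) and 89.9 CPM (Wt1_flfl) in replicate 1. Slc7a6 was above as well, with 72.1 CPM (Wt1_CKO) and 62.7 CPM (Wt1_flfl) in replicate 2, against 62.6 CPM (Wt1_CKO) and 59.7 CPM (Wt1_flfl) in replicate 1. None of these was called by edgeR.

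Hexose and other carriers lay on both sides as well. Slc2a8 had 17.6 CPM (Wt1_CKO) and 16.4 CPM (Wt1_flfl) in replicate 2, against 21.3 CPM (Wt1_CKO) and 21.1 CPM (Wt1_flfl) in replicate 1, with a log2 fold change of -0.32 (SE 0.0526). Slc2a1 had 78.4 CPM (Wt1_CKO) and 84.0 CPM (Wt1_flfl) in replicate 2, against 66.3 CPM (Wt1_CKO) and 76.8 CPM (Wt1_flfl) in replicate 1, higher in both replicate 2 libraries by 0.19 on the log2 scale. Slc2a5 had 2.67 CPM (Wt1_CKO) and 3.50 CPM (Wt1_flfl) in replicate 2, against 1.97 CPM (Wt1_CKO) and 2.61 CPM (Wt1_flfl) in replicate 1. Slc16a10 (TAT1), a carrier of aromatic amino acids, had 3.60 CPM (Wt1_CKO) and 3.44 CPM (Wt1_flfl) in replicate 2, against 2.58 CPM (Wt1_CKO) and 2.05 CPM (Wt1_flfl) in replicate 1, and its log2 fold change of 0.59 was the highest of the 40. Slc38a1 had 257 CPM (Wt1_CKO) and 263 CPM (Wt1_flfl) in replicate 2, against 249.8 CPM (Wt1_CKO) and 209.7 CPM (Wt1_flfl) in replicate 1. Slc38a2 had 292 CPM (Wt1_CKO) and 279 CPM (Wt1_flfl) in replicate 2, against 329 CPM (Wt1_CKO) and 302 CPM (Wt1_flfl) in replicate 1, so these SNAT carriers of system A lay on opposite sides. Slc38a6 was at 11.5 CPM (Wt1_CKO) and 6.19 CPM (Wt1_flfl) in replicate 2, against 6.12 CPM (Wt1_CKO) and 6.03 CPM (Wt1_flfl) in replicate 1, again through Wt1_CKO replicate 2. Slc16a1 overlapped, with 26.6 CPM (Wt1_CKO) and 19.8 CPM (Wt1_flfl) in replicate 2, against 25.2 CPM (Wt1_CKO) and 19.5 CPM (Wt1_flfl) in replicate 1.

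**Figure D4:**
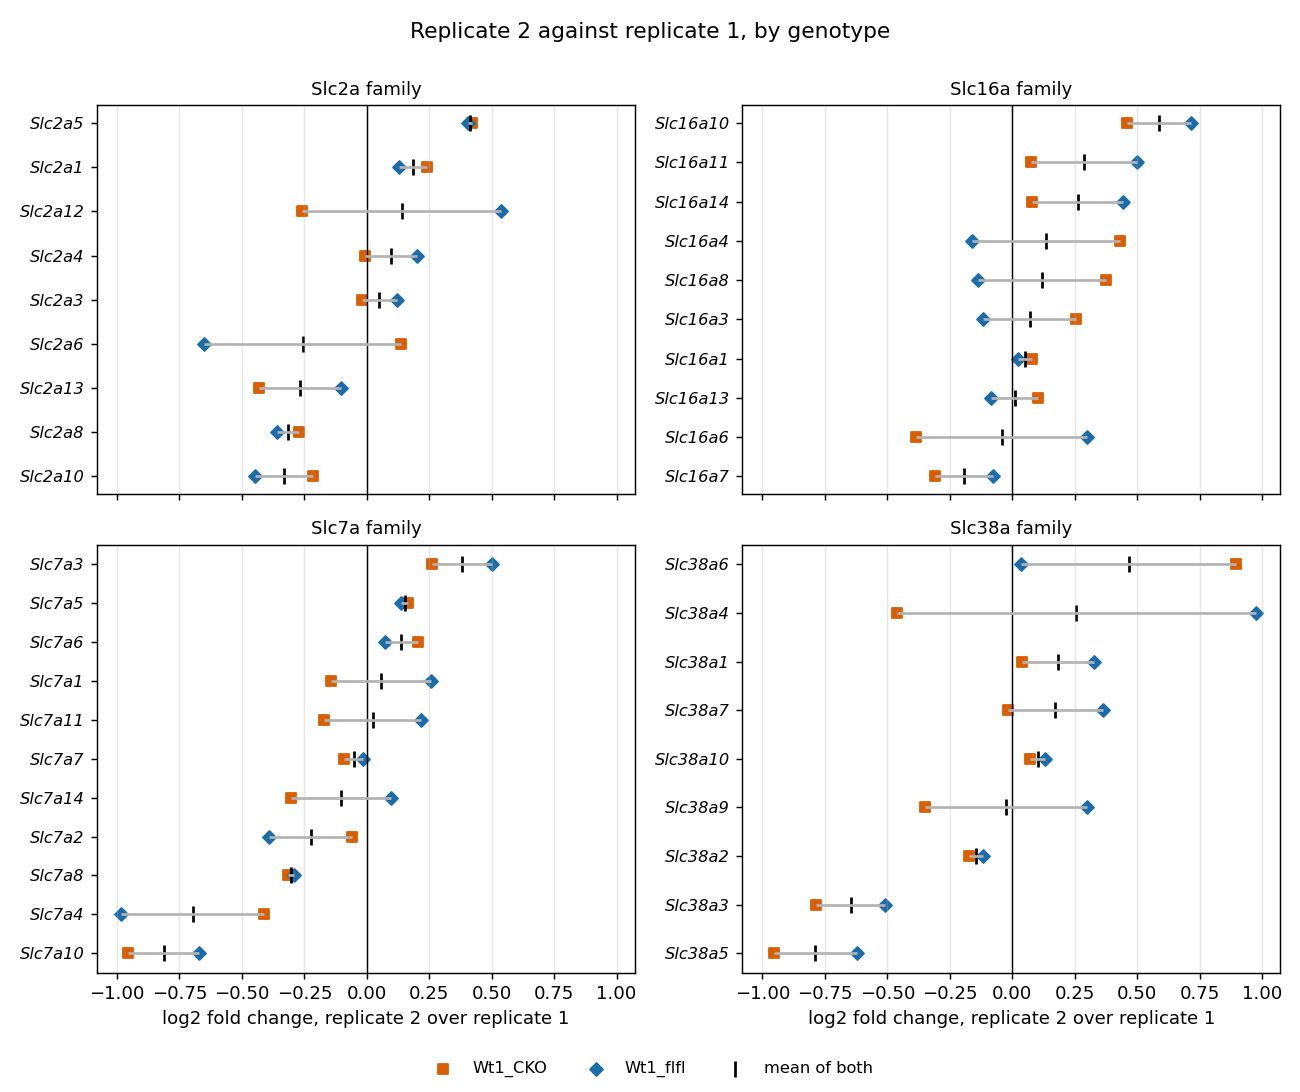
Log2 fold change of replicate 2 over replicate 1 for 39 tested members, with Wt1_CKO as squares, Wt1_flfl as diamonds and the mean as a bar. Slc38a3, Slc38a5, Slc7a10 and Slc7a4 lie below 0 in both genotypes.

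Groups did not overlap for 9 members higher and 9 lower in replicate 2, each 22.5%, beside 24.7% and 25.1% of all tested genes, shares close to the background. The members' median log2 fold change was 0.05, and that of all genes -0.00372, and 23 of 40 were positive, beside 49.5% of all genes. Other genes of the neighbouring pathways were called by edgeR, beside 0.885% of all tested genes called higher and 1.08% called lower. The glutamate and cysteine carrier Slc1a1 fell in replicate 2, with 7.77 CPM (Wt1_CKO) and 8.70 CPM (Wt1_flfl) in replicate 2, against 18.4 CPM (Wt1_CKO) and 13.998 CPM (Wt1_flfl) in replicate 1, at an edgeR adjusted p of 0.0366, as the 1 call among 16 other amino acid carriers. Those 16 had a median log2 fold change of 0.06, with 5 lower in replicate 2 without overlap and 4 higher. Of 20 glycolysis genes Gapdh rose, with 292 CPM (Wt1_CKO) and 273 CPM (Wt1_flfl) in replicate 2, against 169 CPM (Wt1_CKO) and 171 CPM (Wt1_flfl) in replicate 1, at an edgeR adjusted p of 0.00685. The aldolase Aldoc fell, with 63.5 CPM (Wt1_CKO) and 37.2 CPM (Wt1_flfl) in replicate 2, against 165 CPM (Wt1_CKO) and 137 CPM (Wt1_flfl) in replicate 1, at an edgeR adjusted p of 0.00990. Over the 20 the median log2 fold change was -0.13, and 10 were lower in replicate 2 without overlap against 3 higher. Dio3, which inactivates thyroid hormone, rose as the 1 call of 7, with 12.4 CPM (Wt1_CKO) and 11.8 CPM (Wt1_flfl) in replicate 2, against 6.40 CPM (Wt1_CKO) and 5.72 CPM (Wt1_flfl) in replicate 1, at an edgeR adjusted p of 0.0289. Over the 7 the median log2 fold change was -0.49, and 5 were lower in replicate 2 without overlap against 1 higher. Glul, the glutamine synthetase, had 162 CPM (Wt1_CKO) and 173 CPM (Wt1_flfl) in replicate 2, against 131 CPM (Wt1_CKO) and 136 CPM (Wt1_flfl) in replicate 1, and was not called. No partner gene, Atf4 response gene, hypoxia gene or glutamine enzyme was called, with median log2 fold changes of -0.05, 0.04, -0.11 and -0.04.

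Markers of cell types differed with the replicate number beside these carriers. Over all tested genes, edgeR called 0.885% higher and 1.08% lower in replicate 2. Without overlap 24.7% of all tested genes were higher and 25.1% lower. Of 10 neuron markers 3 fell in replicate 2 by edgeR's test, Neurod1, Neurod2 and Neurod6, and the list summed to 5802 (Wt1_CKO) and 6195 CPM (Wt1_flfl) in replicate 2, against 6848 (Wt1_CKO) and 7057 CPM (Wt1_flfl) in replicate 1. Without overlap 8 neuron markers were lower and 0 higher, and the median log2 fold change was -0.32. Of 10 progenitor markers Nes and Hes5 were called higher in replicate 2. Without overlap 5 of the 10 were higher and 3 lower, and the median log2 fold change was 0.06. The list summed to 3297 (Wt1_CKO) and 3149 CPM (Wt1_flfl) in replicate 2, against 2964 (Wt1_CKO) and 2937 CPM (Wt1_flfl) in replicate 1. Of 11 tested red cell genes 5 were called higher, Hba-x, Hbb-bh1, Hbb-y, Alas2 and Slc4a1, and the list summed to 1809 (Wt1_CKO) and 1861 CPM (Wt1_flfl) in replicate 2, against 915 (Wt1_CKO) and 973 CPM (Wt1_flfl) in replicate 1. Without overlap 8 of the 11 were higher and 1 lower. Endothelial markers summed to 215 (Wt1_CKO) and 223 CPM (Wt1_flfl) in replicate 2, against 202 (Wt1_CKO) and 214 CPM (Wt1_flfl) in replicate 1, with 0 of 15 called. Without overlap 7 of the 15 were higher and 2 lower, and the median log2 fold change was 0.17. Meningeal genes summed to 101 (Wt1_CKO) and 133 CPM (Wt1_flfl) in replicate 2, against 71.8 (Wt1_CKO) and 79.7 CPM (Wt1_flfl) in replicate 1, with Crabp2 of 10 called higher. Without overlap 6 of the 10 were higher and 0 lower, and the median log2 fold change was 0.32. Choroid plexus genes summed to 34.6 (Wt1_CKO) and 56.9 CPM (Wt1_flfl) in replicate 2, against 72.8 (Wt1_CKO) and 34.2 CPM (Wt1_flfl) in replicate 1, with 0 of 6 called. Microglial genes summed to 38.7 (Wt1_CKO) and 42.3 CPM (Wt1_flfl) in replicate 2, against 46.8 (Wt1_CKO) and 44.7 CPM (Wt1_flfl) in replicate 1 with 0 of 11 called. Surface epithelium genes summed to 2.96 (Wt1_CKO) and 4.79 CPM (Wt1_flfl) in replicate 2, against 2.58 (Wt1_CKO) and 1.87 CPM (Wt1_flfl) in replicate 1 with 0 of 2 called. Eye genes summed to 52.0 (Wt1_CKO) and 38.5 CPM (Wt1_flfl) in replicate 2, against 97.4 (Wt1_CKO) and 80.9 CPM (Wt1_flfl) in replicate 1, with Rlbp1 of 3 called lower. Mitochondrially encoded genes summed to 21081 (Wt1_CKO) and 24789 CPM (Wt1_flfl) in replicate 2, against 26214 (Wt1_CKO) and 25186 CPM (Wt1_flfl) in replicate 1, with 0 of 11 called. Without overlap, 2 choroid plexus genes were higher and 1 lower, 0 microglial genes higher and 2 lower, and 1 surface epithelium gene higher and 0 lower. For eye genes 0 were higher and 3 lower, and for mitochondrially encoded genes 0 and 4. The part of these cell types in the transporter values was not tested. By genotype none of these marker lists held a call, and no listed marker was at 0 in all 4 libraries.

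The remaining tested members, Slc16a6, Slc16a11, Slc7a2 and Slc7a14, lay at 2.24 to 6.68 CPM with overlapping genotypes and log2 fold changes by genotype from -0.03 to 0.13. Of the 46 members 12 share exon bases with another gene. Exons of Slc16a6 share 1052 bases with Amz2 on the other strand, at 113 to 131 CPM, so the Slc16a6 value is uncertain. Some members were barely detected. Slc16a12 had 8 and 7 counts in Wt1_CKO 1 and 2, against 7 and 7 counts in Wt1_flfl 1 and 2. The urate carrier Slc2a9 had 6 and 4 counts in Wt1_CKO 1 and 2, against 4 and 12 counts in Wt1_flfl 1 and 2. Slc16a9 had 6 and 2 counts in Wt1_CKO 1 and 2, against 2 and 4 counts in Wt1_flfl 1 and 2, and Slc38a11 had 2 and 1 counts in Wt1_CKO 1 and 2, against 3 and 2 counts in Wt1_flfl 1 and 2. Slc2a2 (GLUT2), the glucose carrier of liver and pancreatic beta cells, had 1 count in Wt1_CKO replicate 2 and 1 count in Wt1_flfl replicate 2, and was not analysed in the replicate 1 table. Slc16a5 had 3 counts in Wt1_CKO replicate 1 and 4 counts in Wt1_flfl replicate 1, and was not analysed in the replicate 2 table. No fold is given for these 6 genes. The annotation holds 6 further genes that meet the rule, Slc2a7, Slc38a8, Slc7a9, Slc7a12, Slc7a13 and Slc7a15, which were not analysed here.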

How the data were processed

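RNA-seq counts of 4 mouse brain libraries were used. Per the file headers the authors deposited whole-number counts per Ensembl gene, 1 table per replicate number. The deposited CPM columns are counts over a library total within 0.0225% of the listed sum, with a count of 0 entered as 0.5. The authors' fold ratio is that of the CPM values, and their log2 column is the log of it. P-values in the authors' tables, raw and adjusted, set a single library against another, and the sources used here do not give that test. Each gene carrying the authors' mark had a deposited adjusted p below 0.05 and a log2 fold of 1 or more in size. The submitters' processing notes name Bowtie2 2.2.3, TopHat2 2.0.12, HTSeq 0.6.0 and mm9. Positions of 42 of 46 members equal those of GENCODE vM21, which is on GRCm38, so the tables' positions are given as GRCm38.

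EdgeR 4.0.16 in R 4.3.3 was run on the 19500 genes shared by the tables, with TMM-scaled counts, after filterByExpr with a minimum count of 10, by the quasi-likelihood F test with Benjamini-Hochberg adjustment over 15933 genes. Genotype, and separately replicate number, was the only term. Log2 fold changes are differences of mean log2 CPM (prior count 2), and SEs come from the library SDs. Members and lists were chosen with earlier results of these data known. Members given in every library were the 4 most abundant per family, the 5 with the smallest p per direction and comparison, and a fixed set of main carriers, and a few genes are not reported here by name. Slc16a7, Slc16a8, Slc2a10, Slc38a9, Slc7a3 and the members under the filter were named after their values were seen. No molecular identifiers are named, so reads may include PCR copies. Alternatives were DESeq2 1.42.0, its scaling in edgeR, other filters, the second factor as a block and leaving out each library.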

Additional observations from a re-analysis of the deposited data

How the results depend on the processing

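In the genotype comparison edgeR and DESeq2 called 0 members in each alternative run, while the count of all genes called was 1 in the reported fit, 5 with DESeq2, 42 with the replicate block and 3 to 73 without 1 library. The replicate numbers are shared by the groups but no label links the samples. Deviations of same-numbered libraries correlated at 0.28 across genes, and the replicate block changed no call of a member. In the comparison of replicate numbers, all genes called numbered 313 in the reported fit, 197 with no count filter, 578 with DESeq2, 1138 with genotype as a block and 71 to 940 without 1 library. Members called numbered 1, then 0 with no count filter, 3 with genotype as a block (Slc38a3 and Slc38a5 among them) and 0 to 3 without 1 library. Slc7a4 was called without Wt1_CKO replicate 2, and Slc38a5 and Slc38a6 without Wt1_flfl replicate 2. With 3 libraries a lone sample is assumed to vary like the other group.

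Of the comparisons of a named member with an alternative, 481 kept direction and side of the threshold, 4 gained a call, 3 lost it and 48 turned direction; the cause was not tested. DESeq2 turned Slc38a5 between genotypes, to a log2 fold change of 0.0226. The turns by leaving out 1 library gave these ranges of log2 fold change by genotype: -0.17 to 0.55 for Slc16a10, -0.15 to 0.11 for Slc16a3, -0.0392 to 0.39 for Slc16a4, -0.10 to 0.0170 for Slc2a3, -0.12 to 0.24 for Slc2a8, -0.0552 to 0.27 for Slc38a1, -0.33 to 0.45 for Slc38a3, -0.28 to 0.69 for Slc38a4, -0.50 to 0.46 for Slc38a5, -0.11 to 0.25 for Slc38a7, -0.0608 to 0.20 for Slc7a1, -0.22 to 0.74 for Slc7a10, -0.00742 to 0.21 for Slc7a11, -0.36 to 0.62 for Slc7a4, -0.15 to 0.0139 for Slc7a5 and -0.22 to 0.0990 for Slc7a8. By replicate number the ranges were -0.16 to 0.26 for Slc16a1, -0.0960 to 0.11 for Slc16a13, -0.0123 to 0.54 for Slc16a14, -0.0348 to 0.17 for Slc16a3, -0.10 to 0.37 for Slc16a4, -0.28 to 0.55 for Slc2a12, -0.00696 to 0.10 for Slc2a3, -0.00551 to 0.20 for Slc2a4, -0.73 to 0.21 for Slc2a6, -0.21 to 0.72 for Slc38a4, -0.0785 to 0.19 for Slc7a1, -0.13 to 0.17 for Slc7a11 and -0.20 to 0.0960 for Slc7a7. Others kept direction but moved by over 1.5 times, by genotype -0.17 to -0.0628 for Slc16a13, 0.14 to 0.59 for Slc16a14, -0.27 to -0.0355 for Slc2a1, -0.70 to -0.16 for Slc2a12, 0.15 to 0.58 for Slc2a13, 0.000170 to 0.20 for Slc2a4, -0.59 to -0.17 for Slc2a5, 0.22 to 0.87 for Slc2a6, -0.21 to -0.0852 for Slc38a10, 0.00625 to 0.18 for Slc38a2, 0.00306 to 0.90 for Slc38a6 and 0.0332 to 0.24 for Slc7a6, and by replicate number 0.0794 to 0.29 for Slc2a1, -0.53 to -0.00436 for Slc2a13, 0.22 to 0.61 for Slc2a5, 0.0566 to 0.31 for Slc38a1, 0.0120 to 0.19 for Slc38a10, -0.21 to -0.0847 for Slc38a2, 0.0237 to 0.91 for Slc38a6, 0.0446 to 0.30 for Slc38a7 and 0.0355 to 0.24 for Slc7a6. The members' median by replicate number was -0.01 to 0.08 without 1 library. Under the remaining alternatives the medians, the authors' marks and the counts of members with 1 direction in both tables kept their values within 1.5 times or the spread between replicates. Depth limits Slc38a4, Slc2a12, Slc7a3, Slc7a10 and Slc16a8, with under 50 counts in each library.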
